A study of Mus musculus with 12 samples.

Results

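The genes examined here encode the proteasome, and they were taken from the count table by symbol: every row named Psma, Psmb, Psmc, Psmd, Psme, Psmf or Psmg followed by a number, without the 3 inducible catalytic subunits Psmb8, Psmb9 and Psmb10. This rule found 45 genes among the 24062 rows, and used no measured value. RNA-Seq counts were available for 12 libraries from mouse embryonic fibroblasts (MEFs), 3 for each combination of 2 stable retroviral lines and 2 media. One line expressed shRenilla, a control shRNA that targets a luciferase absent from mouse cells, and the other expressed shBruce#1, whose target Birc6 encodes the giant ubiquitin-conjugating enzyme BRUCE. Cells were kept in full medium (FM) or starved for 2 h in medium lacking serum and amino acids (Starv). Each shRNA was represented by 1 line, so an effect of the shRNA and a difference between the lines cannot be told apart. No label says that replicates came from separate cultures, and p-values therefore measure only the spread between these libraries.

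The proteasome is the protease that degrades ubiquitin-tagged proteins. In its 20S core, 2 outer rings of alpha subunits gate access to 2 inner rings of beta subunits, of which Psmb5, Psmb6 and Psmb7 carry the chymotrypsin-like, caspase-like and trypsin-like active sites. The 19S regulatory particle unfolds substrates with a ring of ATPases (Psmc genes) and recognises and trims ubiquitin chains with its other subunits (Psmd genes), and the core can instead be capped by the activators of the Psme genes. Transcription of the subunits is known to be raised together by the factor encoded by Nfe2l1 when proteasome activity falls, and nutrient starvation is known to change how cells share protein breakdown between proteasomes and autophagy.

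Libraries held 7717265 to 18510540 counted reads, the lowest total being that of shBruce Starv replicate 1. Of the 45 genes, 43 passed the low-count filter and were tested among 12154 genes. Each of the 43 had at least 92 reads in every library, so none entered through 1 condition. The remaining pair were Psma8, a testis form of an alpha subunit listed at 0 in all 12 libraries, and Psmb11, the thymus form of a catalytic subunit, with 0 to 6 reads per library. Of 8 fibroblast markers, Col1a1, Col1a2, Vim, Fn1 and S100a4 were abundant, Thy1 was at or near 0 and Col3a1 was between 7.05 and 49.9 CPM (counts scaled to library size), and the summed markers of leukocytes, endothelial and epithelial cells did not pass 9.75 CPM in any library. Since each library is a bulk sample, fewer expressing cells and less RNA per cell cannot be told apart.

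The knockdown target was lower in every shBruce library. Birc6 stood at 4682, 3273 and 5061 normalized counts (counts scaled by the TMM factors of edgeR) in the shRenilla FM libraries and at 1207, 1265 and 1390.4 in the shBruce FM libraries. After starvation it stood at 4759, 4712 and 2787 in shRenilla and at 1175, 703 and 1226 in shBruce. The log2 fold change was -1.75 ± 0.25 (SE) in FM, which missed the threshold of an adjusted p of 0.05 (adjusted p = 0.063, quasi-likelihood test of edgeR with Benjamini-Hochberg adjustment), and -1.98 ± 0.25 in Starv (adjusted p = 0.019).

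Transcripts of the structural subunits were abundant in unperturbed shRenilla cells. Levels are given as RPKM, the reads of a gene divided by the length of its representative transcript and by library size, averaged over the 3 shRenilla FM libraries. The alpha ring genes had a median of 117 RPKM and the beta ring genes one of 209, against 159 for the 6 ATPases and 148 for the 11 other 19S subunits. The assembly chaperones, which build the complex and do not stay in it, were lower: Psmd5, Psmd9 and Psmd10 lay between 21.8 and 27.2 RPKM, and Psmg1 to Psmg4 between 26.5 and 65.1. Psmf1, which encodes the proteasome-binding protein PI31, was at 11.2 ± 0.79 RPKM (SD, n = 3).

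At the top of the order, Psma7 (323 ± 19), Psmb4 (316 ± 40.5) and Psmb6 (291 ± 34.5) were within each other's spread. Subunits present in equal copies in the core were not equal in RNA. Psmb5 had 35.0 ± 4.66 RPKM, the lowest of the beta ring, while the other catalytic subunits Psmb6 and Psmb7 had 291 ± 34.5 and 216 ± 16.7. In the alpha ring Psma3 had 7.87 ± 0.20 and Psma5 38.5 ± 3.14. The value of Psma3 is uncertain, because its representative transcript is 2846 nt long, the longest but one of the alpha ring, and because it overlaps 3110056K07Rik on the opposite strand. Among the tested genes here, 19 overlap another annotated gene and the strand setting of the counting is not given in the sources used here. Psme2 has a near copy, Psme2b, so that its reads may have been split.

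**Figure D1:**
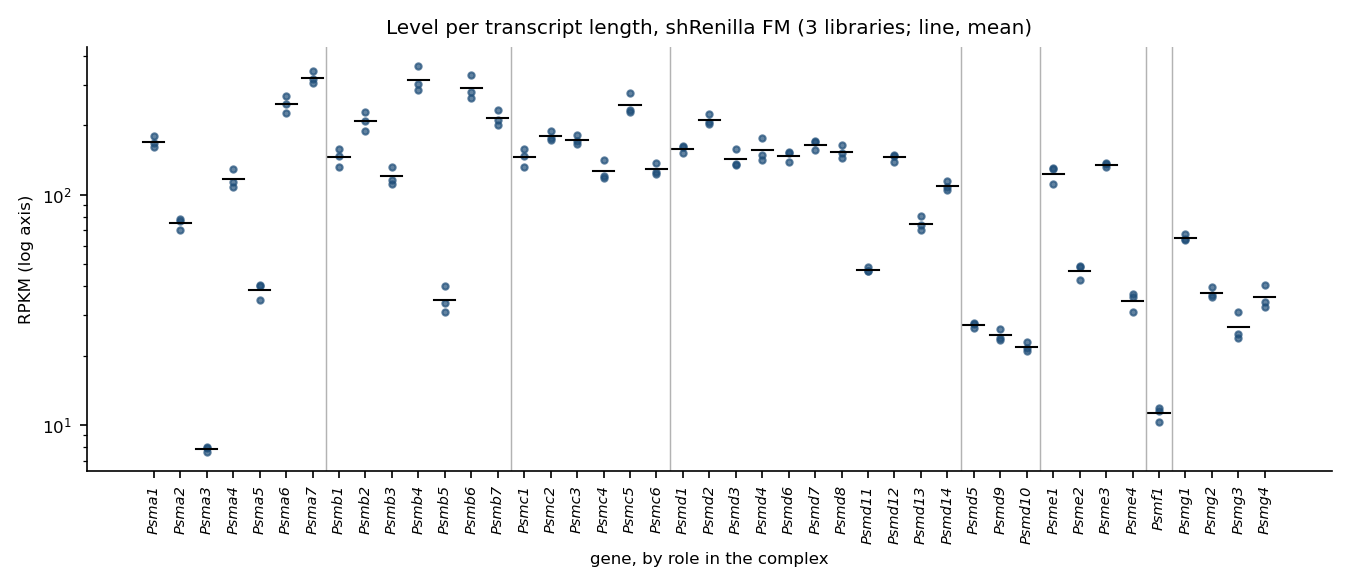
Level per transcript length of the 43 tested proteasome genes in the 3 shRenilla FM libraries (points) with their mean (line), on a log axis in RPKM; genes are ordered by role, with grey lines between roles. Most ring and 19S genes lie above 100 RPKM, while the assembly chaperones, Psmf1, Psmb5 and Psma3 lie below 70.

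Promoter sequence was read for 37 of the genes (40 start sites, 250 bases before to 50 after the start, RefSeq, GRCm38.p6). The core of the antioxidant response element, TGACNNNGC on either strand, the letters bound by Nfe2l1 and its relatives, was present in 6 of the 40 windows (15.0%) and in 12.4% of all 32851 windows of that length. CCAAT on either strand was present in 13 (32.5%) against 37.4% of all windows. For the genes that carry the comparisons below, 70 bases ending 10 bases into the transcript are shown, with these motifs in capitals. They cover 2 catalytic subunits, the ring gene with the largest difference, and 3 genes that were lower in a comparison. The windows lie at chr14:54617986-54618055 (Psmb5, minus strand), chr11:70525297-70525366 (Psmb6), chr11:97703374-97703443 (Psmb3), chr11:107479468-107479537 (Psmd12), chr11:101316153-101316222 (Psme3) and chr11:30771715-30771784 (Psme4), all but the first on the plus strand.
Psmb5: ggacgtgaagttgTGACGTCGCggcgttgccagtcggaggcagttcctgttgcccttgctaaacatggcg
Psmb6: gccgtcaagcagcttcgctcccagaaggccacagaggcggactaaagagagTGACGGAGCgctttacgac
Psmb3: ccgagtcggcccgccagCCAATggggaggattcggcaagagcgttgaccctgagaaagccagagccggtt
Psmd12: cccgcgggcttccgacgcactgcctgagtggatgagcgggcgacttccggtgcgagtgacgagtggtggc
Psme3: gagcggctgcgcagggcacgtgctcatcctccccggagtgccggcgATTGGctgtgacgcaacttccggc
Psme4: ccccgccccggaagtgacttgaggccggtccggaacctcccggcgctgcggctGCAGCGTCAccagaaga
The antioxidant core thus occurred in Psmb5 and Psmb6 and, on the other strand, in Psme4. CCAAT occurred in Psmb3 and, on the other strand, in Psme3. Psmd12 held neither in the stretch shown, but its whole window of 250 bases before to 50 after the start was among the 6 with the antioxidant core.

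The first comparison asked how the lines differed in FM. No proteasome gene passed the threshold, and neither did any of the 12154 genes (0%). At an unadjusted p under 0.05 there were 6 of the 43 genes, against 1750 of all 12154 genes. DESeq2 and limma-voom also called none of the 43, while over all genes DESeq2 called 76 and limma-voom 0. The log2 fold changes of shBruce against shRenilla were small and mostly positive, above 0 for 39 of 43, with a median of 0.21 against 0.01 over all genes. In 25 of the 43 all shBruce FM libraries lay above all shRenilla FM libraries, which held for 16.4% of all genes, and none showed the opposite, which held for 17% of all genes.

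The 7 beta ring genes lay between 0.23 and 0.47 in FM, with a median of 0.28. Psmb6, the caspase-like subunit, was counted at 3266, 3845 and 3072 in shRenilla FM and at 4495, 5039.6 and 4607 in shBruce FM. These groups did not overlap, and the log2 fold change was 0.47 ± 0.18 (adjusted p = 0.30, edgeR). Psmb5, the chymotrypsin-like subunit, was counted at 446, 526 and 406 against 583, 626 and 602, again without overlap (log2 fold change 0.39 ± 0.15, adjusted p = 0.31). Psmb7, the trypsin-like subunit, stood at 3589.7, 3971 and 3419 against 4475, 4325 and 4366 (0.26 ± 0.15, adjusted p = 0.41). Every shBruce FM library was thus above every shRenilla FM library for each of the 3 catalytic genes. Once a trend with transcript length and GC content was removed, the beta ring genes had a median of 0.07 in FM, with values from 0.01 to 0.22. Psma7, an alpha ring subunit, stood at 4261, 4585 and 4086 against 5827, 6139 and 5408 (0.43 ± 0.31, adjusted p = 0.49).

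Among the 19S genes, Psmd4, the ubiquitin receptor Rpn10, stood at 3833, 4529 and 3633 in shRenilla FM and at 4939.8, 5340.1 and 4659 in shBruce FM (0.32 ± 0.22, adjusted p = 0.47). Psmd11, a scaffold subunit of the lid, stood at 2009, 1942 and 1932 against 2179, 2082 and 2140.2 (0.12 ± 0.28, adjusted p = 0.84). Neither pair of groups overlapped, and neither difference passed. The SE of Psmd11 rests on a spread shared by all 4 conditions. Its SD was 41.8 in shRenilla FM and 48.7 in shBruce FM, against 1639 in shBruce Starv. Psmd14, the deubiquitinating subunit Rpn11, stood at 2583, 2422 and 2368 against 2763, 2490.5 and 2713, with overlap (0.11 ± 0.13, adjusted p = 0.66). Psmf1 stood at 574, 655 and 642 against 716, 735 and 673, without overlap (0.18 ± 0.11, adjusted p = 0.41).

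Few genes lay on the other side in FM. Psme4 encodes PA200, a single-chain cap of the core. It stood at 3497, 2934 and 3414 in shRenilla FM and at 2702, 2849 and 3146 in shBruce FM. These values overlapped, with a log2 fold change of -0.18 ± 0.15 (adjusted p = 0.54). Psmc6, a 19S ATPase, stood at 4497, 4012 and 4101 against 4182, 3636 and 3801, also overlapping (-0.12 ± 0.15, adjusted p = 0.70). Both differences were above 0 once a trend with transcript length and GC content was removed, at 0.11 for Psme4 and 0.05 for Psmc6.

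The FM count depended on how the spread was estimated. When only the 6 FM libraries were fitted, Psmb6 and Psma7 passed, against 1.89% of all genes higher. With limma-voom and weights for library quality, 19 proteasome genes were higher and 1, Psme4, was lower, against 13.7% of all genes higher and 16.6% lower. The heat map of all libraries shows these shBruce FM libraries as pale red columns across most ring and 19S genes.

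**Figure D2:**
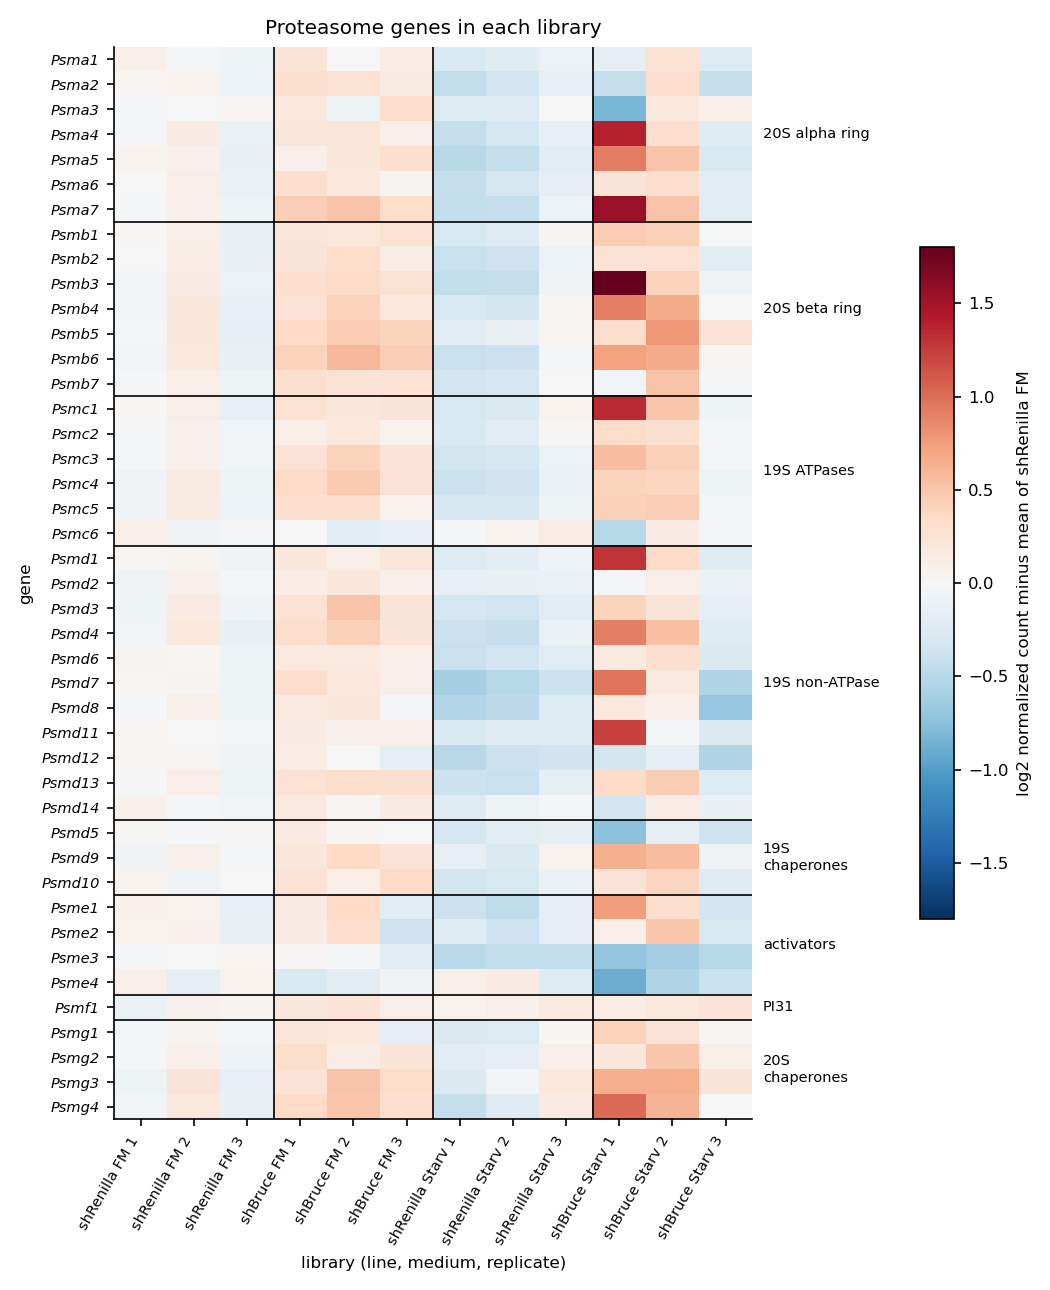
Log2 normalized count of each of the 43 genes in each of the 12 libraries, minus the mean of that gene in shRenilla FM; red is higher, blue lower, and genes are grouped by role. The starved shRenilla libraries are mostly blue, the shBruce FM libraries mostly pale red, and shBruce Starv replicate 1 spans -0.90 (Psme4) to 1.79 (Psmb3).

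The second comparison asked how the lines differed after starvation. Here 21 of the 43 genes passed the threshold: 20 were higher in shBruce, against 12.8% of all genes higher, and 1 was lower, against 11.2% lower. The median log2 fold change was 0.45 against -0.0012 over all genes. Before the genes are described, the 3 shBruce Starv libraries have to be set apart. In replicate 1 the standard deviation over the 43 genes of the log2 difference from the shRenilla FM mean was 0.65, against 0.29 and 0.21 in replicates 2 and 3 and at most 0.19 in each of the other 9 libraries. The medians of that difference were 0.34, 0.31 and -0.16 in replicates 1, 2 and 3, so the 3 libraries did not sit together.

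When shBruce Starv replicate 1 was left out, 1 proteasome gene passed, Psmb5, against 1.84% of all genes higher. Without replicate 3, 33 passed, 32 of them higher against 22.2% of all genes. None passed when shBruce Starv replicate 2, shRenilla Starv replicate 1 or shRenilla Starv replicate 2 was left out. Of all genes, 15, 0 and 0 passed in those fits. Without shRenilla FM replicate 1, 13 passed, against 16% of all genes. With limma-voom and weights for library quality 35 were higher, against 26.1% of all genes. When only the 6 starved libraries were fitted, no proteasome gene and no gene at all passed (0%). Of the 43 genes, 39 were above 0 with all libraries, and 39 were above 0 without shBruce Starv replicate 1, where the median was 0.34. These 2 fits share most libraries. With a trend with transcript length and GC content removed, 34 were above 0 and the median was 0.13. The median of shBruce Starv replicate 3 against the shRenilla FM mean, -0.16, lay inside the range of the shRenilla Starv libraries, -0.31 to -0.11.

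In the alpha ring 4 of 7 genes passed as higher in shBruce than in shRenilla, namely Psma4, Psma5, Psma6 and Psma7. Psma7 stood at 3163, 3192 and 3985 in shRenilla Starv and at 12634, 6151 and 3730.2 in shBruce Starv (log2 fold change 1.12 ± 0.31, adjusted p = 0.028). Psma4 stood at 1479.5, 1587 and 1786 against 5220.0, 2440.2 and 1705 (0.94 ± 0.29, adjusted p = 0.036). For both genes replicate 1 was far above the rest and replicate 3 lay within the range of the shRenilla libraries, and without replicate 1 the values were 0.50 and 0.34. Psma1, Psma2 and Psma3 had values between 0.07 and 0.17 and did not pass.

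In the beta ring 5 of 7 genes passed as higher in shBruce, namely Psmb1, Psmb3, Psmb4, Psmb5 and Psmb6. Psmb3, a non-catalytic subunit, had the largest value of all 43 genes. It stood at 982, 999.5 and 1284 in shRenilla Starv and at 4639, 1779 and 1285 in shBruce Starv (1.23 ± 0.34, adjusted p = 0.028), and without replicate 1 the value was 0.48. Psmb5 stood at 399, 417 and 469 against 567, 784 and 545 (0.56 ± 0.16, adjusted p = 0.028). Psmb6 stood at 2552, 2590.1 and 3327 against 5575, 5386 and 3458 (0.77 ± 0.18, adjusted p = 0.022). For these 3 genes every shBruce library was above every shRenilla library, though for Psmb3 the nearest libraries were at 1284.2 and 1284.6. Psmb7 stood at 2869.7, 2928 and 3618 against 3539, 5191 and 3614 and did not pass (0.39 ± 0.15, adjusted p = 0.075).

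Of the 6 ATPases 4 passed as higher in shBruce, Psmc1, Psmc3, Psmc4 and Psmc5. Psmc1 stood at 2774, 2817 and 3529 in shRenilla Starv and at 8549, 4781 and 3209 in shBruce Starv (0.86 ± 0.26, adjusted p = 0.034), with replicate 3 inside the shRenilla range. Psmc3, Psmc4 and Psmc5 were higher in shBruce by 0.59, 0.54 and 0.52 on the log2 scale with no overlap between the lines. Psmc2 was at 0.36 and did not pass, and Psmc6 stood at 4129, 4373 and 4603 against 2953, 4670.1 and 4127 (-0.16 ± 0.15, adjusted p = 0.45).

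Among the 11 other 19S subunits 4 passed as higher in shBruce, Psmd3, Psmd4, Psmd7 and Psmd13. Psmd4 stood at 3038, 2992 and 3659 against 7495, 5785 and 3433 (0.79 ± 0.22, adjusted p = 0.028). Psmd14 stood at 2095, 2303 and 2412 against 1934, 2691 and 2249, a difference of 0.01 ± 0.13 (adjusted p = 0.94) that changed sign under several alternatives. Psmd11 stood at 1620.0, 1665 and 1655 against 4612, 1939.8 and 1633 (0.72 ± 0.28, adjusted p = 0.073). Replicate 1 alone set the value of Psmd11, which was 0.10 without it.

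The chaperones and regulators were less uniform. Psmd9 was higher in shBruce among the 3 chaperones of the 19S particle (0.52 ± 0.16). Psmg3 (0.55 ± 0.17) and Psmg4 (0.75 ± 0.22) were higher among the 4 chaperones of the core. Each of these 3 genes had an adjusted p between 0.033 and 0.040 (edgeR). Psme1 and Psme2, the subunits of the interferon-inducible activator PA28 alpha-beta, had values of 0.64 and 0.40 and did not pass. Psmf1 stood at 649, 666 and 701 against 680.3, 712 and 731, a difference of 0.08 ± 0.11.

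Psme4 was the 1 gene that passed as lower in shBruce. It stood at 3513, 3641 and 2816 in shRenilla Starv and at 1756, 2249 and 2473 in shBruce Starv, with every shBruce library below every shRenilla library (-0.62 ± 0.15, adjusted p = 0.023). Without shBruce Starv replicate 1 the value was -0.51 and did not pass. In all, 10 of the 43 genes were higher in every shBruce Starv library than in any shRenilla Starv library, against 16.4% of all genes, and 2 (Psme3 and Psme4) were lower in every one, against 18.5% of all genes.

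**Figure D3:**
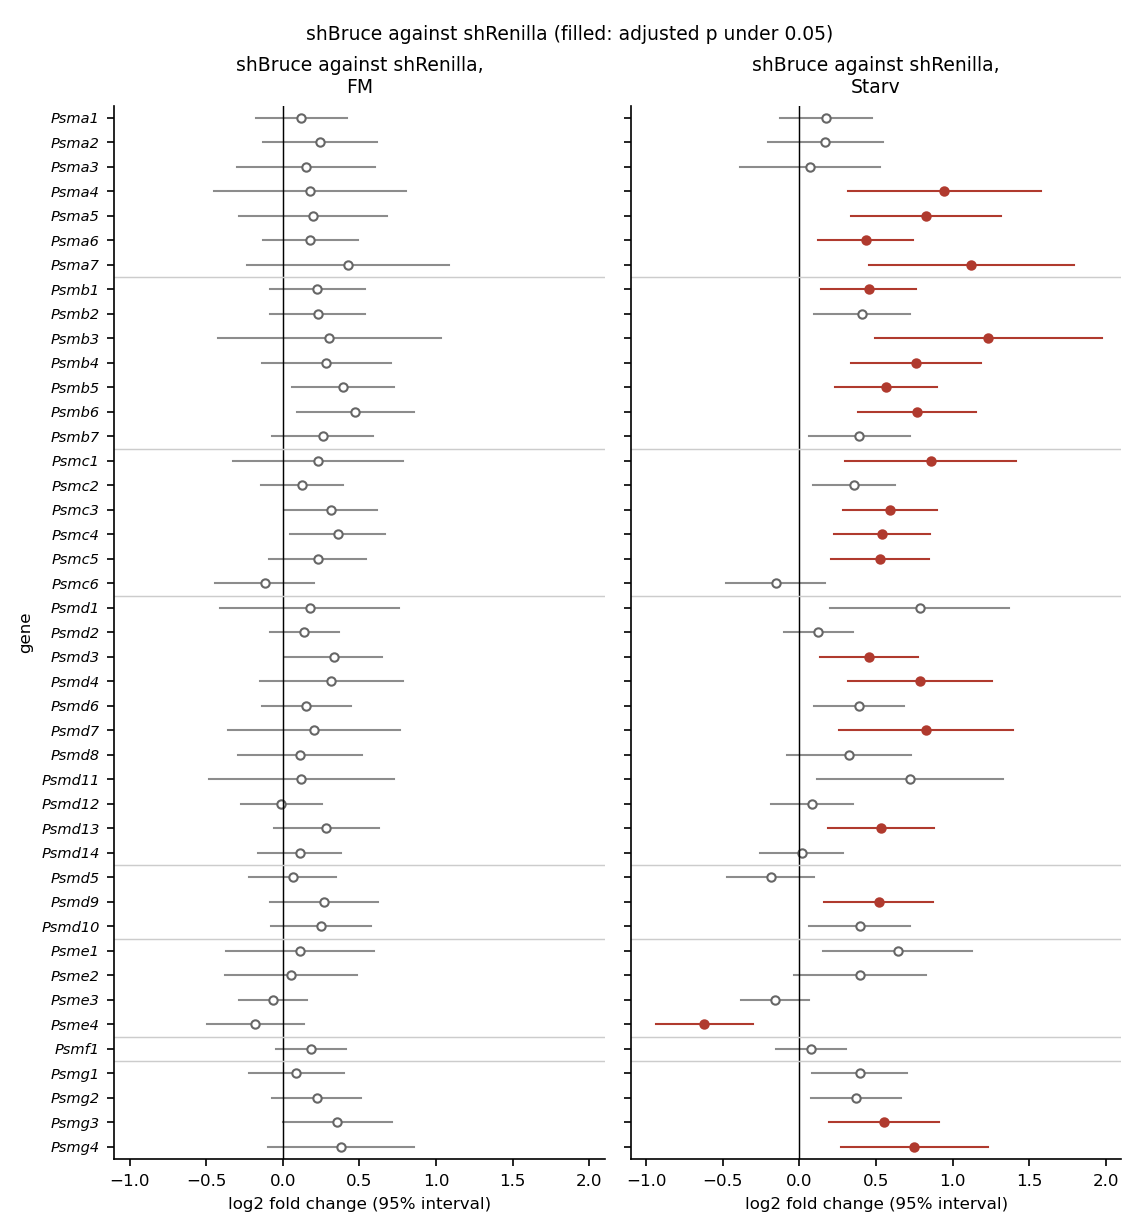
Log2 fold change of shBruce against shRenilla with its 95% interval for the 43 genes, in FM (left) and after starvation (right); filled red symbols have an adjusted p under 0.05 in edgeR. No gene is filled in FM, and 20 filled genes lie right of 0 and 1, Psme4, left of it after starvation.

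These genes have short transcripts, and the libraries differed along both transcript length and GC content. The median transcript length of the 43 genes was 1541 nt, against 3073.5 nt over the tested genes with a length, and their median GC content was 49.7% against 50.2%. Across genes, the rank correlation between transcript length and a library's deviation from the mean of all libraries was positive in 5 of 6 shRenilla libraries (up to 0.53) and negative in 5 of 6 shBruce libraries (down to -0.59). With GC content the rank correlation was negative in 5 of 6 shRenilla libraries (down to -0.44) and positive in 5 of 6 shBruce libraries (up to 0.47). Short and GC-rich transcripts were thus relatively higher in most shBruce libraries, and the correction took out both trends at once. When a smooth trend with length and GC was removed from every library, none of the 43 genes passed in the starved comparison, against 2.46% of all genes higher. At an unadjusted p under 0.05 in that edgeR fit there were 17 of the 43, against 3391 of all 12052 genes. The median fell from 0.45 to 0.13 in Starv and from 0.21 to 0.10 in FM.

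Single genes moved unequally under that correction. Psma4, Psma7 and Psmb3 kept values of 0.66, 0.57 and 0.56 in the starved comparison, and the long subunit genes Psmd1 and Psmd11 had 0.99 and 0.86. Psmb5 went from 0.56 to -0.06, Psmb6 from 0.77 to 0.11 and Psme4, whose representative transcript is the longest of the 43 at 6491 nt, from -0.62 to -0.15. The plot of both settings shows that Psmb5 held its value without shBruce Starv replicate 1 (0.62) and lost it with the trend removed, whereas Psmb3 and Psma7 were reduced by both.

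**Figure D4:**
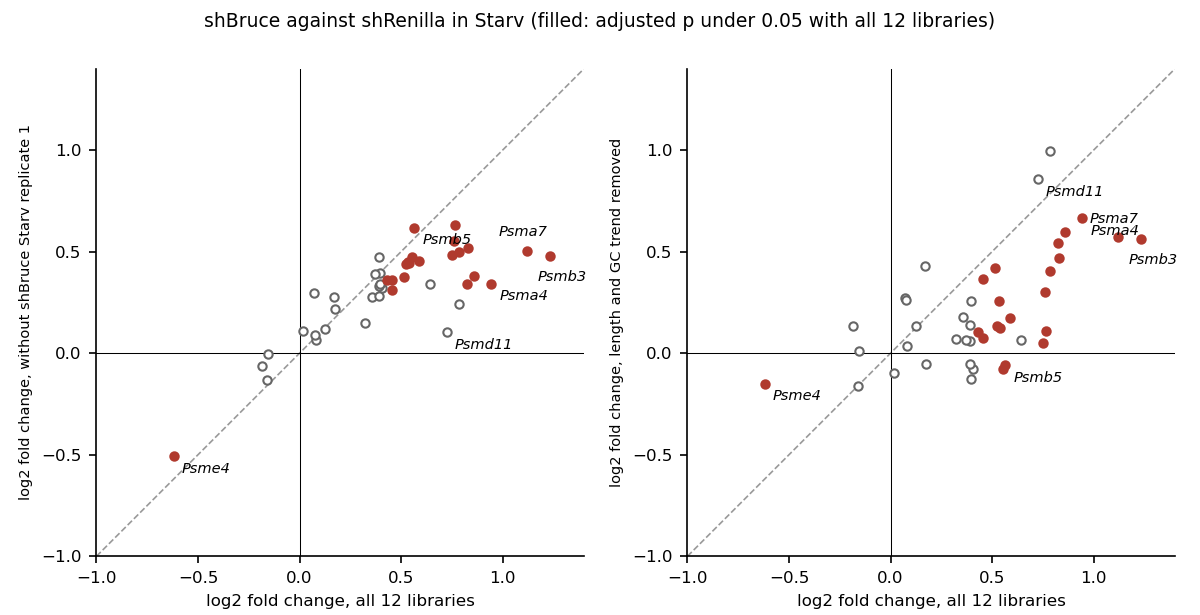
Log2 fold change of shBruce against shRenilla after starvation for the 43 genes, with all 12 libraries (horizontal) against the same without shBruce Starv replicate 1 (left) or with the length and GC trend removed (right); filled genes have an adjusted p under 0.05 with all libraries and the dashed line marks equality. Most filled genes lie below the line in both panels, and Psmb5 crosses 0 in the right one only.

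The third comparison asked what 2 h of starvation did in the control line. Values were shifted downward, below 0 for 40 of the 43 genes with a median of -0.24 against -0.01 over all genes, but only Psme3 and Psmd12 passed (2 of 43, against 7.27% of all genes lower). In 22 of the 43 genes every starved library was below every FM library, as it was for 26.5% of all genes. Psme3 encodes PA28 gamma, a nuclear activator of the core. It stood at 5127, 5286 and 5367 in shRenilla FM and at 3755, 3864 and 3886 in shRenilla Starv (-0.46 ± 0.10, adjusted p = 0.0085). It passed in all 23 alternatives, with an adjusted p between 2.7e-06 and 0.049. Psmd12, the lid subunit Rpn5, stood at 4154, 4116 and 3872 against 2861, 3082 and 3149 (-0.42 ± 0.12, adjusted p = 0.034) and passed in 16 of 23 alternatives.

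Psmd7, a lid subunit, had the lowest value of the 43 in shRenilla but did not pass in the fit of all 12 libraries. It stood at 3900, 3947 and 3605 in FM and at 2520.1, 2676 and 2906 in Starv, without overlap (-0.50 ± 0.26, adjusted p = 0.21). The SD of Psmd7 was 185 and 194 in these groups, against 2456 in shBruce Starv, which shared the spread behind that SE. The beta ring was at a median of -0.22 with none passing, and Psmb5 stood at -0.10 ± 0.15. Psmd11 stood at -0.25 ± 0.28, Psmd14 at -0.11 ± 0.13 and Psmd4 at -0.31 ± 0.22. Psmf1 and Psme4 were close to 0, at 0.11 ± 0.11 and 0.02 ± 0.15. When only the 6 shRenilla libraries were fitted, 16 of the 43 genes were lower, against 19.5% of all genes. Psmd7 was among those that passed in that fit, at -0.48. With limma-voom and quality weights 31 were lower, against 29.4% of all genes. With the length and GC trend removed 3 were lower (Psme3, Psmd12 and Psmd6), against 11.2% of all genes, and the median was -0.17.

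The fourth comparison asked the same of the shBruce line. There 25 genes were above 0 and 18 below, with a median of 0.03 against 0.02 over all genes, and 2 passed, both lower, against 10.6% of all genes lower. Psme3 stood at 5331, 5151 and 4627 in shBruce FM and at 3216, 3398 and 3667 in shBruce Starv (-0.55 ± 0.10, adjusted p = 0.0021). It passed in 22 of 23 alternatives, the exception being the fit of the 6 shBruce libraries alone. Psmd5, an assembly chaperone of the ATPase ring, stood at 1941, 1795 and 1738 against 1048, 1547 and 1347 (-0.47 ± 0.13, adjusted p = 0.021) and passed in 19 of 23. In 3 genes, Psme3, Psmd5 and Psme4, every starved library was below every FM library, against 14.8% of all genes.

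The rest of the shBruce comparison depended on the libraries and the correction used. Without shBruce Starv replicate 3, 8 genes rose (Psma4, Psma5, Psma7, Psmb3, Psmb4, Psmc1, Psmd1 and Psmd4), against 16.1% of all genes, and Psmd5, Psme3 and Psme4 fell, against 16.6%. With the length and GC trend removed no gene rose and 8 fell (Psma1, Psmb2, Psmc4, Psmd5, Psmd12, Psmd14, Psme3 and Psme4), against 15.7% of all genes. Without shBruce Starv replicate 1 the median was -0.11 and the genes below 0 numbered 35. Without shBruce Starv replicate 2, 4 genes fell (Psma2, Psmd5, Psmd12 and Psme3), against 10.9% of all genes, and without shBruce FM replicate 1 or 2 Psme3 was left as the only call.

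**Figure D5:**
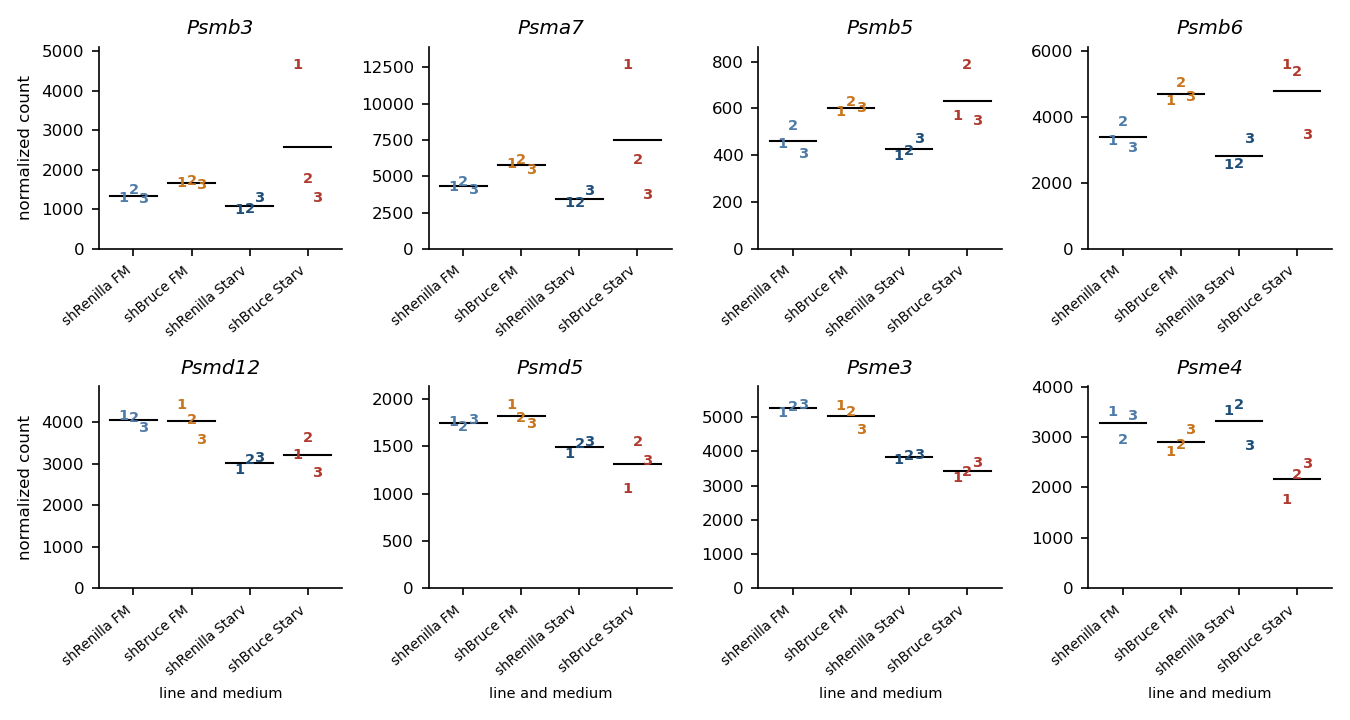
Normalized counts of 8 proteasome genes in each library, printed as the replicate number (axes start at 0; the black line is the mean of 3). Starved Psme3 values lie below all FM values in both lines, Psme4 is lowest in shBruce Starv, and for Psmb3 and Psma7 replicate 1 of shBruce Starv stands far above its fellows.

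The test of the difference itself, whether starvation acted differently in the lines, called none of the 43 genes and none of all genes (0%). No proteasome gene had an unadjusted p under 0.05 in that test with edgeR, against 474 of all 12154 genes. DESeq2 (1 proteasome gene at an unadjusted p under 0.05) and limma-voom also called none. The median interaction was 0.23, with 34 of 43 values above 0. The extremes were Psmb3 (0.93 ± 0.48) and Psma4 (0.77 ± 0.41) above and Psme4 (-0.44 ± 0.21) and Psmd5 (-0.25 ± 0.19) below, each with an adjusted p of 0.81. For Psmb5 the 95% interval ran from -0.30 to 0.64, so values within that range were not excluded by these libraries. The median interaction was 0.12 without shBruce Starv replicate 1. With the length and GC trend removed it was 0.03, with 26 of the 43 values above 0 and 17 below.

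Genes that work with the proteasome were followed as a list of 28, all of which passed the filter. In FM none differed between the lines. After starvation 7 of the 28 were higher in shBruce, against 12.8% of all genes, and 3 were lower, against 11.2%, a share near that of all genes. Pomp, the maturation protein of the core, stood at 1644, 1629.5 and 2170.5 in shRenilla Starv and at 4905, 3471 and 1859 in shBruce Starv (log2 fold change 0.91 ± 0.25, adjusted p = 0.029). Replicate 3 of shBruce fell within the shRenilla range.

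The inducible catalytic subunit Psmb10 (1.09 ± 0.35) and Vcp, the unfolding ATPase that delivers ubiquitinated proteins (0.73 ± 0.24), were also higher in shBruce Starv, with adjusted p-values of 0.041 and 0.043. Those lower in shBruce Starv were Ddi2, the protease that activates the Nfe2l1 product (-0.76 ± 0.25), Ube3c, a proteasome-bound ubiquitin ligase (-0.57 ± 0.12), and AI314180, an alias of Ecpas, whose product binds the 26S particle (-0.36 ± 0.11). Only Ube3c of this list passed between the starved lines without shBruce Starv replicate 1. With the length and GC trend removed, 1 of the 28 was higher in shBruce, against 297 of all 12052 genes, and 0 were lower, against 229.

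With starvation the gene of the subunits' own activator rose in both lines. Nfe2l1 stood at 4827, 5154 and 5155 in shRenilla FM and at 6892, 6620.2 and 6679.9 in shRenilla Starv (0.42 ± 0.13, adjusted p = 0.041). In shBruce it stood at 4889, 5196 and 5179.8 in FM and at 7505, 5509.8 and 7760.3 in Starv (0.44 ± 0.13, adjusted p = 0.024). In both lines every starved library was above every FM library for Nfe2l1, which held for 3144 of all 12154 genes in shRenilla and 1963 in shBruce. None of the 43 proteasome genes passed as higher in the reported fit, with 3 above 0 in shRenilla and 25 in shBruce. A link between Nfe2l1 and these genes was not tested. Nfe2l1 did not pass in shBruce without shBruce Starv replicate 1, where its value was 0.37. It did not differ between the lines beyond the spread (0.04 ± 0.13 in Starv).

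In shRenilla, Ngly1, the deglycosylating enzyme that acts on the Nfe2l1 product, rose as well, at 246, 225 and 226 in FM and 372, 403 and 398 in Starv (0.75 ± 0.23, adjusted p = 0.040). In shBruce the value of Ngly1 was 0.60 ± 0.23, which did not pass (adjusted p = 0.080, edgeR). Ubqln4, a shuttle for ubiquitinated proteins, fell in both lines, by 0.36 and 0.33 on the log2 scale, and Ube3c fell in shBruce by 0.37. In all, 2 of the 28 rose and 1 fell in shRenilla (9.69% of all genes rose and 7.27% fell), and 2 rose and 2 fell in shBruce (12.4% of all genes rose and 10.6% fell). Among the inducible subunits, Psmb8 and Psmb9 passed in no comparison.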

How the data were processed

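The study's methods state that total RNA was enriched for poly(A) RNA and read as single ends, that reads aligning to rRNA were removed, and that the rest were mapped to mm10 with STAR 2.4.0d. The deposited values are raw counts of reads per gene symbol that the authors made with HTSeq 0.5.4p3. The gene annotation, strand setting and treatment of overlapping genes are not given in the sources used here. All 12 libraries, 3 per condition, were assigned from their titles. Totals of 7717265 to 18510540 counts set the precision.

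Counts were tested with the quasi-likelihood test of edgeR 4.0.16 (R 4.3.3): TMM scaling, filterByExpr, 1 fit of all 4 conditions without a replicate block, Benjamini-Hochberg adjustment over 12154 genes, and a threshold of 0.05. The authors themselves used voom and limma, which is an alternative here. Normalized counts are counts per TMM-scaled library of mean size, and ± after a fold change is its SE. That SE uses a spread per gene shared by all 4 conditions. A gene that varied most in shBruce Starv thus has an SE too wide for the other conditions and too narrow for that one. RPKM used the representative GENCODE M21 transcript (GRCm38); of 24060 symbols, 22724 matched directly and 915 by synonym. The length and GC alternative subtracted a spline with 4 degrees of freedom per library and covered 12052 genes. Other alternatives were size factors and the Wald test of DESeq2 1.42.0, upper-quartile scaling, limma-voom (limma 3.58.1), other filters, a replicate block, fits of the groups compared only, and leaving out each library. Voom with sample quality weights was added after seeing the data. Before use, the fit was run on simulated counts with 1 spread for all genes and libraries and no length trend. It recovered 200 of 200 changed genes, with 8 false calls. That run held neither the length and GC trends nor the unequal spread of the shBruce Starv libraries, so it does not bear on their calls.

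The genes and lists were chosen with earlier results of these data known, so no adjustment over a list alone is given. Values in every library are given for Psmb5, Psmb6, Psmb7, Psmd4, Psmd11, Psmd14, Psme3, Psme4 and Psmf1, and for up to 4 called genes each way with the largest change per comparison, or the 2 highest and 2 lowest where none passed. The values of 1 gene of the associated list are not reported here.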

Additional observations from a re-analysis of the deposited data

How the results depend on the processing

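The counts of proteasome genes past the threshold depended on the processing, most of all between the starved lines. There the count of 21 became 12 with a replicate block, 0 with the length and GC trend removed, 0 with block and trend together, 0 when only the groups compared were fitted and 36 with sample quality weights, and leaving out 1 library gave 0 to 33. Of all genes, 23.9% passed in the reported fit, 15.9% with the block, 53.7% with quality weights and 46.7% without shBruce Starv replicate 3, the fit that gave 33. The other scalings, filters and tools gave 16 to 31, where 14.9% to 31.1% of all genes passed. The 16 came from limma-voom (22.8% of all genes) and the 31 from the DESeq2 Wald test (31.1%). The split was 20 higher and 1 lower in the reported fit and 25 and 1 with upper-quartile scaling. In those leave-one-out fits that gave 0 proteasome genes, 0 to 15 of all genes passed. In FM the count of 0 became 20 with quality weights and 2 with only the groups compared, and 0 in every leave-one-out fit. In shRenilla the count of 2 became 1 with upper-quartile scaling, 31 with quality weights and 16 with only the groups compared, and 1 to 6 without 1 library (of all genes 17%, 18.3%, 58.1%, 41.9% and 9.34% to 26.2%, the first being the reported fit): 6 without shBruce Starv replicate 3, and 1, Psme3, without each of the shRenilla libraries in turn. In shBruce the count of 2 became 1 with upper-quartile scaling, 4 with the DESeq2 Wald test, 8 with the trend removed, 8 with block and trend and 0 with only the groups compared, and 1 to 11 without 1 library (of all genes 23%, 24.1%, 26.8%, 31.8%, 29.2%, 8.11% and 15.1% to 32.7%, in the same order). The interaction stayed at 0 in each alternative run, its leave-one-out range being 0 to 0. Upper-quartile scaling moved the split of all genes in shRenilla from 1178 higher and 883 lower to 1588 and 641.

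Of the named genes, Psme4 and Psmc6 in FM changed sign with the trend removed (0.11 and 0.054) and with block and trend (0.10 and 0.054). Psmb5 in Starv did so with the trend removed (-0.061) and with block and trend (-0.073). Psmd14 in Starv, at 0.01, changed sign without a filter (-0.0065), with the trend removed (-0.098), with block and trend (-0.10), and in leave-one-out fits, which ran from -0.12 to 0.11. Apart from the trend-removed fits, which alter the values by construction, the cause was not tested.

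Same-numbered replicates did not pair: correlations of their deviations from the group means ran from -0.51 to 0.21, and in no comparison were all 3 above 0.1. With the replicate block the counts were 0 in FM, 12 in Starv, 2 in shRenilla, 2 in shBruce and 0 for the interaction. With 3 libraries per condition an exact permutation test of 1 gene cannot go below 0.1, and the calls rest on the spread shared by edgeR across genes. The 7717265 reads of shBruce Starv replicate 1 limit precision for the least counted genes, such as Psma3 with 92 reads there.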

Other observations

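The inducible catalytic subunits were left out of the gene set by its rule, and 1 FM library stood apart for them. Psmb8 and Psmb9, which replace the standard catalytic subunits under interferon, had 14 and 7 reads in shBruce FM replicate 3, against 189 to 285 and 29 to 88 reads in the other FM libraries. The interferon-inducible activator genes were also lowest of the FM libraries there, with 1735 normalized counts for Psme1 and 509 for Psme2 against 1802 to 2559.6 and 599 to 810.3. The corresponding values of Psmb8 in the starved shBruce libraries were 389.6, 299.8 and 103 normalized counts.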
